A study of Mus musculus with 15 samples.

Results

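The heat shock and DnaJ chaperones are taken here as the genes whose symbol marks them as an Hsp70 or Hsp110 (Hspa genes and Hsph1), an Hsp90, a small heat shock protein (Hspb genes), a J-domain protein of class A, B or C (Dnaja, Dnajb and Dnajc genes), the mitochondrial chaperonin (Hspd1 and Hspe1) or a heat shock factor (Hsf1 and Hsf2). Of the 25080 genes listed for each library, 72 met this rule: 11 Hsp70, 3 Hsp110, 3 Hsp90, 8 small heat shock protein, 2 chaperonin and 2 heat shock factor genes, and 4, 13 and 26 J-domain genes of class A, B and C. A level of at least 1 TPM (a length-corrected measure of transcript abundance) in at least 3 libraries was reached by 63 of the 72, and these were tested among 13471 genes that passed the same filter.

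Chaperones keep other proteins folded. Hsp70 binds exposed hydrophobic stretches in a cycle driven by ATP, J-domain proteins bring it clients and start ATP hydrolysis, Hsp110 and other exchange factors release the nucleotide, and Hsp90 receives partly folded kinases and receptors through cochaperones. Hsp60 (Hspd1) and its lid Hsp10 (Hspe1) fold proteins inside mitochondria, BiP (Hspa5) and Grp94 (Hsp90b1) do so in the endoplasmic reticulum, and small heat shock proteins hold unfolded proteins without ATP. In neurons the constitutive Hsc70 (Hspa8) also strips clathrin from vesicles with auxilin (Dnajc6) and serves the synaptic vesicle protein CSP alpha (Dnajc5). Hsf1 is the transcription factor that switches on the inducible members under stress.

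RNA came from microdissected, unsorted thalamus of adult mice aged 2 to 4 months. Maged1-cKO mice carried a floxed Maged1 and Cre under the vGluT2 promoter, so that the gene is deleted in Vglut2 neurons alone and other thalamic cells keep it, while the controls are called Maged1 WT in the titles. All mice received saline injections for 3 days and then either cocaine (20 mg/kg, intraperitoneal) or saline for 5 days. Tables of 14 libraries were analysed, 4 from each of the 2 saline groups, 4 labelled control cocaine and 2 labelled cKO cocaine, and 1 of the 15 samples, also labelled cKO cocaine, was not analysed here.

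The labels and the scale of the libraries bear on everything that follows. Maged1, the targeted gene, had TMM-scaled levels of 152, 167, 150.3 and 151 TPM in control saline and 78.4, 76.8, 68.9 and 64.9 TPM in cKO saline, but after cocaine 58.3, 87.7, 77.2 and 70.1 TPM under the control label and 153 and 173 TPM under the cKO label. It was thus higher in the cKO label than in the control label after cocaine, against the labels, and the genotype tag and the title of 4 saline libraries name different genotypes. Groups are therefore written as libraries labelled control or cKO, and the cocaine effect averaged over both labels, which stays the same if the cocaine labels are exchanged, leads the account. The deposited TPM of the listed genes summed to 312659 to 377401 per library and depth is unknown from TPM. TMM factors (which align the bulk of genes between libraries) ran from 0.810 to 0.945 in all cocaine libraries and from 1.07 to 1.20 in all saline libraries. On the TPM as deposited the median log2 fold change of all tested genes for cocaine was -0.34, so every difference below is relative to the bulk of genes, and a gene said to rise did so against that bulk. Markers of thalamic neurons were present in every library, with summed levels of 418 to 608 TPM over 6 genes, among them Slc17a6, which encodes Vglut2.

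The chaperones made up an uneven pool of RNA. In libraries labelled control saline the 72 genes summed to 2199 to 2295 TMM-scaled TPM. They held 0.741% to 0.780% of the TPM of all listed genes. Of the chaperone sum 3 cytosolic genes, Hspa8, Hsp90ab1 and Hsp90aa1, held 47.2% to 49.1%. Hspa8 stood at rank 16 of the 13471 tested genes, Hsp90ab1 at rank 51 and Hsp90aa1 at rank 96. The next members were Hsp90b1 (73.5 ± 3.5 TPM, SD, n = 4), auxilin Dnajc6 (69.0 ± 2.3 TPM), Dnajc5 (58.6 ± 1.9 TPM), Hspa5 (57.5 ± 4.7 TPM) and Hsph1 (54.8 ± 1.5 TPM). The ranges of Hsp90b1 and Dnajc6 overlapped over the 4 libraries, as did those of Dnajc5, Hspa5 and Hsph1. The stress-inducible Hsp70 genes were at the other end, with 2.13 to 2.96 TPM for Hspa1a and 0.66 to 1.00 TPM for Hspa1b. These neighbours are near-identical copies, so reads may be split between them and each value is uncertain.

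**Figure D1:**
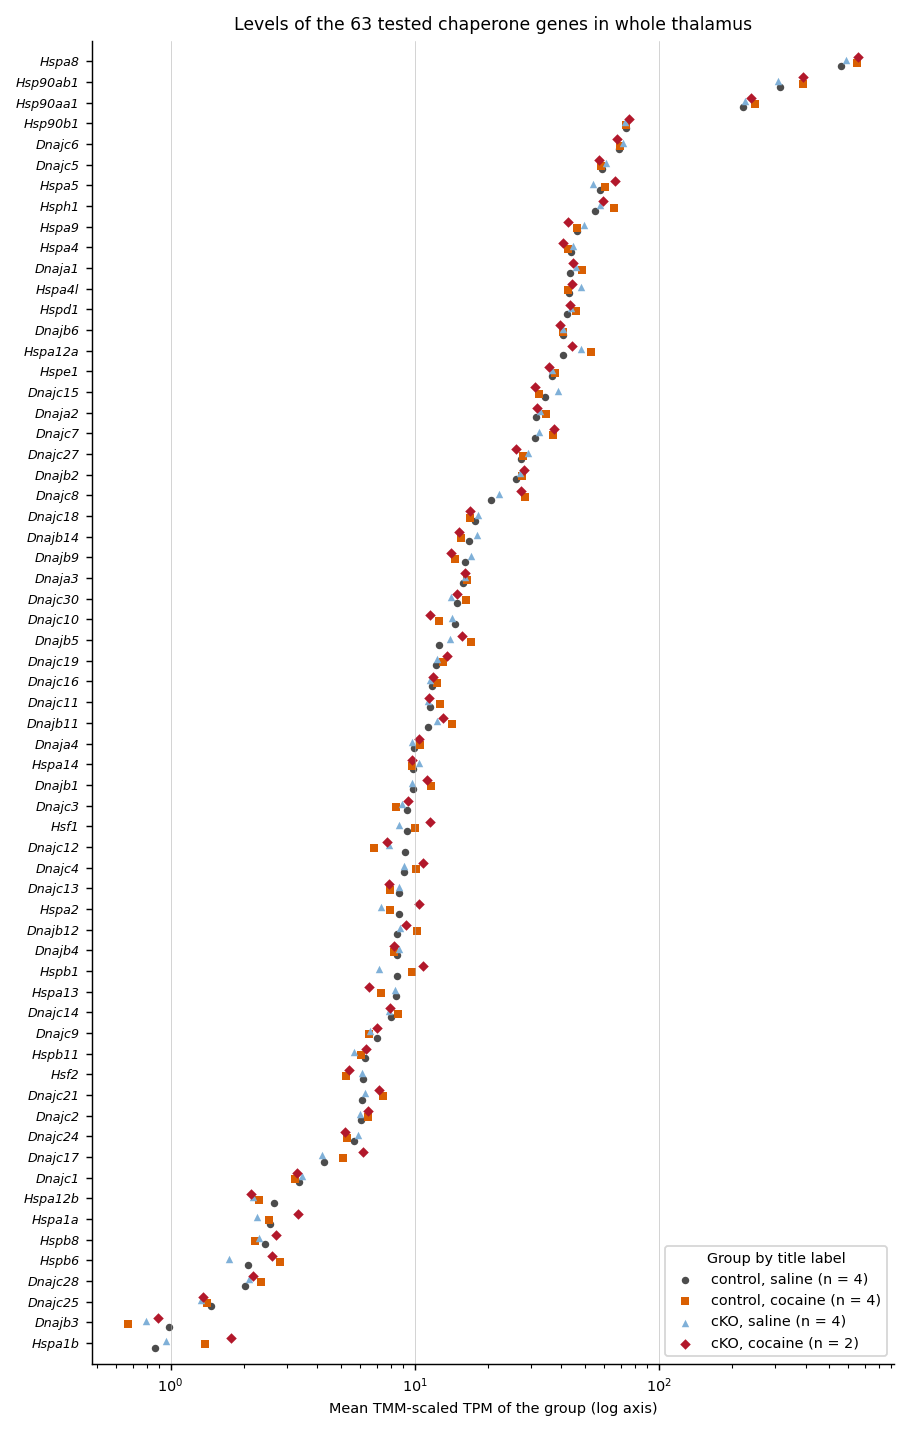
Mean TMM-scaled TPM (log axis) of the 63 tested chaperone genes, 1 row per gene, ordered by their mean in control saline, with a symbol for each of the 4 groups. Hspa8, Hsp90ab1 and Hsp90aa1 stand apart at the top, and the 4 group symbols of most genes lie close together.

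The 9 genes that did not pass the filter were Dnajb7, Dnajb8, Dnajb13, Dnajc22, Hspa1l, Hspb2, Hspb3, Hspb7 and Hspb9. Dnajb8 was listed at 0 in all 14 libraries. Dnajb13, a gene of motile cilia, reached 1.06 TPM in control saline replicate 1 and was listed at 0 in the library labelled control cocaine replicate 4, in which 6 markers of ependymal and motile ciliated cells summed to 4.22 TPM against 14.4 to 23.9 TPM in the rest of that group.

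Many chaperone genes differed after cocaine, by small amounts. Averaged over both labels, 17 of the 63 rose and 7 fell at an adjusted p under 0.05 (limma, Benjamini-Hochberg over all tested genes), where 16.2% of all tested genes rose and 16.4% fell. None also reached the log2 fold change of 0.5 required for a call, against 2.05% of all tested genes, and 31 had an unadjusted p under 0.05, as did 42.7% of all tested genes. Over the 63 genes the log2 fold changes had a median of 0.05 and a range of -0.27 to 0.47, with 39 above 0, and over all tested genes a median of -0.0027. The median absolute change was 0.12 for the chaperones and for all tested genes. The 95% confidence interval lay within 0.5 either way for 59 of the 63. Leaving out the library labelled cKO cocaine replicate 1 gave 10 higher and 5 lower, and leaving out cKO cocaine replicate 2 gave 12 higher and 2 lower.

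The changes were read by the compartment in which the proteins work, with the groups set from their known locations. Of all tested genes 16.2% rose and 16.4% fell. Of 21 cytosolic members 9 rose and none fell, with a median log2 fold change of 0.16. Of 14 members of the endoplasmic reticulum 3 rose and 4 fell, of 8 mitochondrial members 1 fell, of 6 members of the nucleus, spliceosome and ribosome 3 rose, and of 3 members of the synaptic vesicle, clathrin coat and endosome 1 fell. Of the 11 tested members placed in none of these compartments 2 rose and 1 fell, with a median log2 fold change of -0.06. Whether these shares differ between compartments was not tested.

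**Figure D2:**
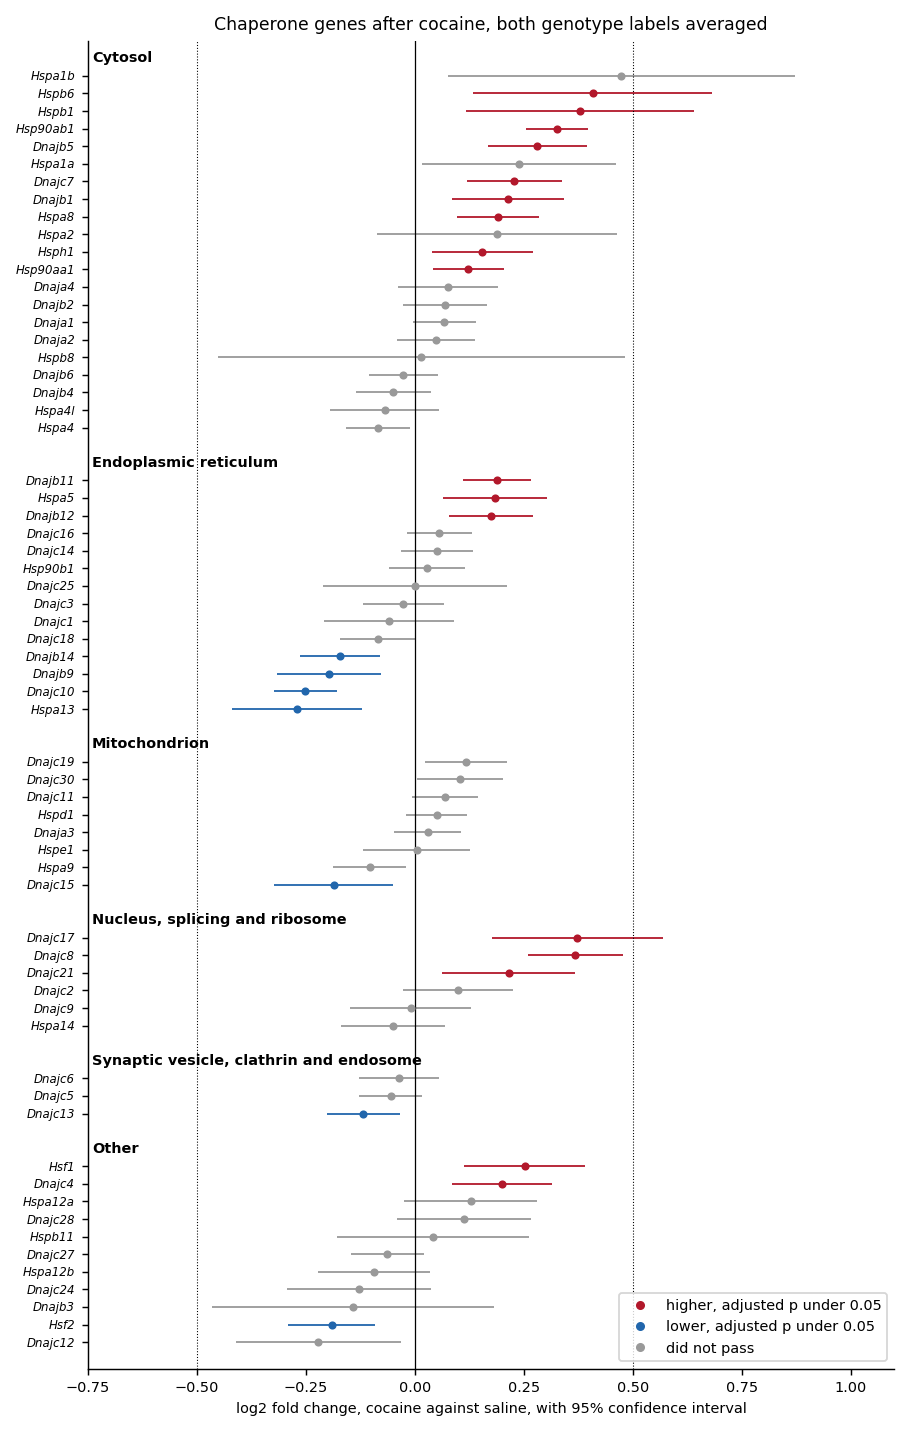
Log2 fold change of each of the 63 chaperone genes for cocaine against saline, averaged over both genotype labels, with its 95% confidence interval, grouped by compartment; dotted lines mark 0.5 either way. The coloured points on the right are mostly cytosolic and nuclear genes, and no point passes 0.5.

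Of the 3 Hsp90 genes both cytosolic ones rose. Hsp90ab1, the constitutive cytosolic Hsp90 beta, lay at 299, 327, 315 and 315 TPM in control saline and 318, 299.6, 311 and 305 TPM in cKO saline. After cocaine it lay at 373, 384, 383 and 417 TPM in the control label and at 389 and 394 TPM in the cKO label. All 6 cocaine libraries were above all 8 saline libraries, a separation shared by 5.37% of all tested genes on the higher side and by 5.33% on the lower side. The log2 fold change was 0.33 (SE 0.033, limma adjusted p 2.35e-05), with 0.31 in the control label and 0.35 in the cKO label, and its adjusted p stayed at or below 0.000396 whichever library was left out. Hsp90aa1, the inducible Hsp90 alpha, moved less, from 211 to 242 TPM in saline libraries to 236 to 257 TPM in cocaine libraries, which overlap, with a log2 fold change of 0.12 (SE 0.038, limma adjusted p 0.0245). That call was lost in 2 of the 14 refits that left out a library, with an adjusted p of up to 0.078. Hsp90b1, the Hsp90 of the endoplasmic reticulum, did not pass, at 0.03 (95% confidence interval -0.06 to 0.12). With the trends of expression on GC content and transcript length removed from each library, Hsp90b1 had 0.16 and passed (limma adjusted p 0.0109).

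Among Hsp70 genes the constitutive Hspa8 rose. Its levels were 520.0, 573, 569 and 581 TPM in control saline, 624, 571, 603 and 546 TPM in cKO saline, 598, 665, 669 and 676 TPM in the control label after cocaine, and 654 and 658 TPM in the cKO label after cocaine. Only control cocaine replicate 1 fell inside the saline range. The log2 fold change was 0.19 (SE 0.043, limma adjusted p 0.005), and it held when any single library was left out. The mitochondrial Hsp70, Hspa9 (mortalin), had -0.10 on average and did not pass, while in the cKO label it fell by 0.21 on the log2 scale (limma adjusted p 0.0294), a call lost in 4 of the 14 refits. The inducible genes did not pass on average: Hspa1a had 0.24 (95% confidence interval 0.02 to 0.46) and Hspa1b 0.47 (0.08 to 0.87). In the cKO label Hspa1a reached 3.35 and 3.33 TPM after cocaine against 1.91 to 3.07 TPM after saline, a log2 fold change of 0.49 with a limma adjusted p of 0.0455 that was lost in 9 of the 14 refits. Hspa1b reached 2.73 TPM in cKO cocaine replicate 1 and 0.83 TPM in replicate 2.

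Hspa12a, a distant Hsp70 relative abundant in brain, passed in the control label, from 39.3, 35.7, 43.3 and 43.5 TPM to 52.0, 48.3, 51.7 and 59.0 TPM, with no overlap. Its log2 fold change there was 0.38 (SE 0.089, limma adjusted p 0.00871), against -0.12 (SE 0.109) in the cKO label, where saline libraries already lay at 42.7 to 52.8 TPM. Markers of neurons and oligodendrocytes moved between the same groups. The summed level of 3 neuron markers was 589 to 696 TPM in control saline, 696 to 842 TPM in control cocaine, 723 to 823 TPM in cKO saline and 710 to 745 TPM in cKO cocaine, and all 3 passed upward in the control label and none in the cKO label, and the difference between labels passed for Syt1 (-0.46, limma adjusted p 0.024). That of 5 oligodendrocyte markers was 1302 to 1543, 1443 to 2268, 1614 to 2282 and 1736 to 1767 TPM in the same order, and 2 of the 5, Mbp and Mobp, passed upward in the control label and none in the cKO label. Their part in the Hspa12a values was not tested. The difference between the labels' effects on Hspa12a, -0.50 (SE 0.141), had a limma adjusted p of 0.0823 and did not pass. With groups set by the genotype tags the control-label change was no longer past the threshold (adjusted p 0.104). Hspa2, best known from testis, had 0.19 (95% confidence interval -0.09 to 0.46) and did not pass.

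The nucleotide exchange factor Hsph1 (Hsp105) rose by 0.16 (SE 0.053, limma adjusted p 0.0408). It held 53.7 to 57.0 TPM in control saline and 59.0 to 73.2 TPM in the control label after cocaine, with no overlap, but 57.8 and 60.9 TPM against 51.4 to 61.6 TPM in the cKO label, and 10 of the 14 refits lost the averaged call. The other Hsp110 genes, Hspa4 and Hspa4l, had -0.08 and -0.07 and did not pass.

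Among cytosolic J-domain genes, 3 of those described here rose on average. Dnajb1 (Hsp40), the partner of Hsp70 in disaggregation, rose from 9.28 to 10.2 TPM in control saline and 9.12 to 10.4 TPM in cKO saline to 10.2 to 13.5 TPM and 10.5 to 12.03 TPM, a log2 fold change of 0.21 (SE 0.059, limma adjusted p 0.0145), lost in 1 of the 14 refits. Dnajb5, a close relative, rose by 0.28 (SE 0.052, limma adjusted p 0.00141). Its 4 libraries labelled control cocaine, at 18.4, 16.6, 15.2 and 17.7 TPM, all lay above control saline, at 12.1 to 13.1 TPM, while the cKO label overlapped, at 14.9 and 16.4 TPM against 13.0 to 15.5 TPM. Dnajc7, which passes clients between Hsp70 and Hsp90, rose by 0.23 (SE 0.051, limma adjusted p 0.00423), from 29.3 to 35.0 TPM in saline libraries to 34.9 to 39.5 TPM. Dnaja1, the class A partner of Hspa8, passed in the control label, at 42.9 to 43.7 TPM after saline and 46.5 to 50.4 TPM after cocaine (log2 fold change 0.17, limma adjusted p 0.0117), and had -0.03 in the cKO label. With GC and length trends removed the averaged call for Dnajb1 was lost (limma adjusted p 0.0683), while Dnaja1 (0.21, adjusted p 0.000717) and Dnaja2 (0.17, adjusted p 0.0175) passed. Dnajb6, a suppressor of protein aggregation, had -0.03 (95% confidence interval -0.10 to 0.05), and Dnaja2, Dnaja4, Dnajb2 and Dnajb4 did not pass in the averaged comparison either.

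**Figure D3:**
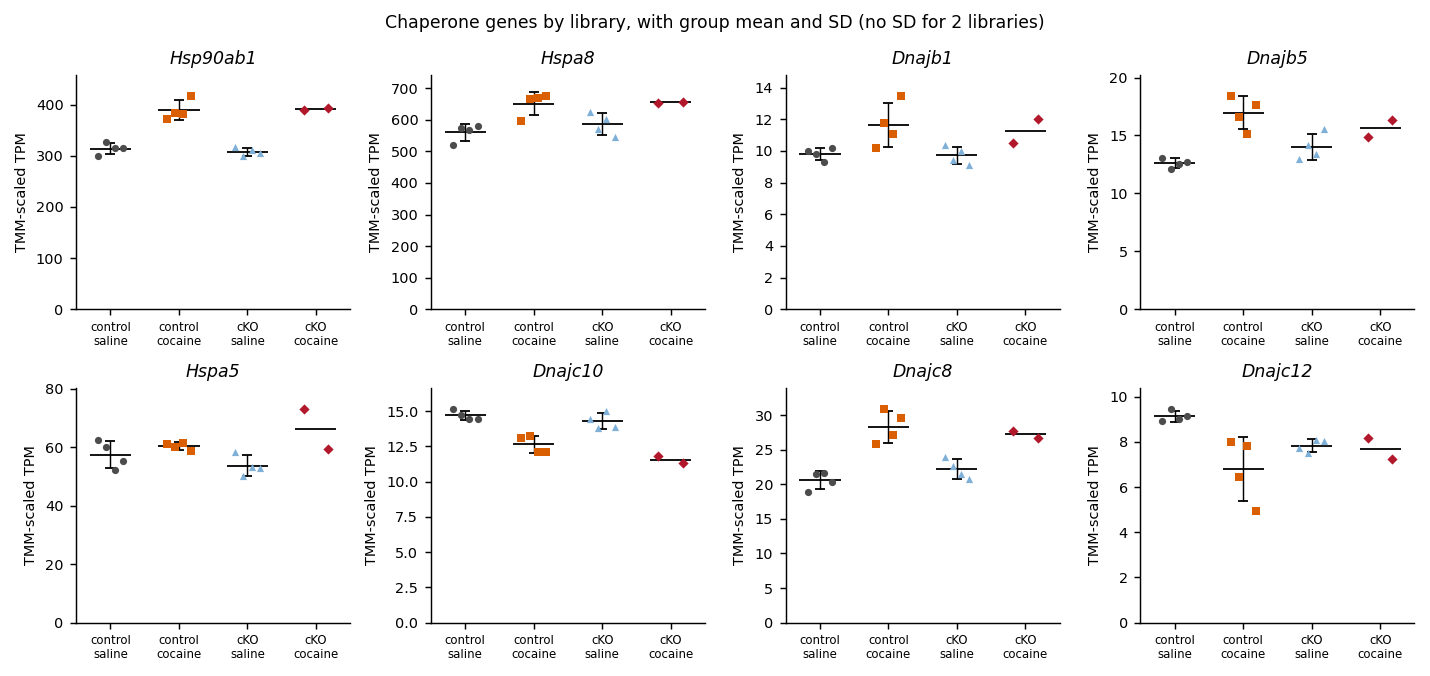
TMM-scaled TPM of 8 chaperone genes in each of the 14 libraries, with the group mean as a line and the SD as a bar (no SD for the 2 cKO cocaine libraries); every vertical axis starts at 0. Hsp90ab1 and Dnajc8 are higher and Dnajc10 is lower in all 6 cocaine libraries than in all 8 saline libraries, and the other 5 genes overlap.

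Small heat shock proteins were low. Hspb1 (Hsp27), which binds unfolded proteins and actin, rose by 0.38 (SE 0.121, limma adjusted p 0.0291), but its groups overlapped: 6.71 to 10.3 TPM in control saline, 6.28 to 8.17 TPM in cKO saline, 8.22 to 11.7 TPM in control cocaine and 13.0 and 8.75 TPM in cKO cocaine. The call was lost in 5 of the 14 refits, with values from 0.24 to 0.51. Hspb6 (Hsp20), a vascular and muscle small heat shock protein, rose by 0.41 (SE 0.127, limma adjusted p 0.0257) from 1.49 to 2.41 TPM to 1.74 to 3.59 TPM, and 2 refits lost it. Neither Hspb1 nor Hspb6 passed with GC and length trends removed. Hspb8, which works with Bag3 in autophagy, had 0.02 (95% confidence interval -0.45 to 0.48) and lay at 3.91 TPM in control saline replicate 1 and 1.11 TPM in control cocaine replicate 4. As a reading of vessel cells in the same libraries, summed levels of 6 endothelial and mural markers were 39.0 to 47.3 TPM in control saline, 38.0 to 44.6 TPM in control cocaine, 40.5 to 45.9 TPM in cKO saline and 35.4 to 37.8 TPM in cKO cocaine, and their part in these values was not tested. In such unsorted tissue fewer cells of a type and less RNA per cell cannot be told apart.

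Of the heat shock factors Hsf1 rose and Hsf2 fell, and neither call held with GC and length trends removed, where Hsf1 had 0.18 (limma adjusted p 0.0707) and Hsf2 turned to 0.022 (limma adjusted p 0.735). On the main scale Hsf1 rose by 0.25 (SE 0.064, limma adjusted p 0.00974), with 8.57 to 9.94 TPM in control saline against 8.45 to 11.2 TPM in control cocaine, and 7.91 to 9.72 TPM in cKO saline against 11.4 and 11.8 TPM in cKO cocaine. By label it passed in the cKO libraries (0.41, limma adjusted p 0.0137, lost in 2 of the 14 refits) and not in the control libraries (0.10, limma adjusted p 0.407), and the difference between labels did not pass (0.31, limma adjusted p 0.224). Hsf2, a second factor that can pair with Hsf1, fell by 0.19 (SE 0.046, limma adjusted p 0.00731), from 5.65 to 6.49 TPM in saline libraries to 4.83 to 5.77 TPM in cocaine libraries, and without cKO cocaine replicate 2 it had -0.14 (limma adjusted p 0.0655).

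In the endoplasmic reticulum Hspa5 (BiP), the main Hsp70 there and the sensor of its folding load, rose by 0.18 (SE 0.055, limma adjusted p 0.022). Its levels were 62.3, 60.2, 52.1 and 55.2 TPM in control saline, 61.3, 60.0, 61.5 and 58.7 TPM in control cocaine, 58.5, 50.2, 53.3 and 53.0 TPM in cKO saline, and 73.0 and 59.5 TPM in cKO cocaine. Without cKO cocaine replicate 1, the highest library, the averaged change was 0.11 with a limma adjusted p of 0.156. Its J-domain partner Dnajb11 (ERdj3) rose by 0.19 (SE 0.036, limma adjusted p 0.00168), with 11.2 to 11.8 TPM in control saline and 13.5 to 14.8 TPM in control cocaine, and Dnajb12, a membrane J-domain protein of degradation, rose by 0.17 (limma adjusted p 0.00995), a call lost without cKO cocaine replicate 2 (0.12, adjusted p 0.0884). The 4 that fell were Dnajc10 (ERdj5), a disulphide reductase of the same compartment, Dnajb9 (ERdj4), Dnajb14 and Hspa13. Dnajc10 was at 15.1, 14.7, 14.4 and 14.4 TPM in control saline and 14.4, 13.8, 15.03 and 13.9 TPM in cKO saline, and at 13.1, 13.2, 12.1, 12.1, 11.8 and 11.3 TPM in the cocaine libraries, all of them below the saline libraries. It fell by 0.25 on the log2 scale (SE 0.033, limma adjusted p 0.000143). Hspa13 fell by 0.27, Dnajb9 by 0.20 and Dnajb14 by 0.17 (limma adjusted p 0.00931, 0.0157 and 0.00791). Without cKO cocaine replicate 2, Hspa13 had -0.19 (adjusted p 0.0844) and Dnajb9 -0.13 (adjusted p 0.135), and with GC and length trends removed none of these 3 passed. Dnajc3 (p58IPK), an inhibitor of the PERK kinase, did not pass.

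The promoters of this compartment are known for the endoplasmic reticulum stress element, at which ATF6 acts, and the sequences are shown because Hspa5, Hsp90b1 and Dnajc3, which lie at different levels and had different changes, share the element. RefSeq promoters (GRCm38.p6, from 250 bases before to 50 after each start) were at hand for 58 of the 72 genes, in 75 entries. The other 14 were not searched: Hspa8, Hspa9, Hspa13, Hsp90aa1, Hsp90ab1, Hspb2, Hsf1, Dnajc2, Dnajc5, Dnajc11, Dnajc12, Dnajc18, Dnajc22 and Dnajc30. The element, spelled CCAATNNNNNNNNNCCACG or on the other strand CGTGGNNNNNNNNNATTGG, was found in 39 of all 32851 promoters (0.119%), among them those of 3 chaperone genes. Capitals mark the element.
Hspa5, chr2:34772020-34772048, plus strand: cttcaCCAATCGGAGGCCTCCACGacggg
Hsp90b1, chr10:86705633-86705661, minus strand: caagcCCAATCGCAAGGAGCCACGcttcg
Hsp90b1, chr10:86705528-86705556, minus strand: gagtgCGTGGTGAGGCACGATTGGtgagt
Dnajc3, chr14:118937822-118937850, plus strand: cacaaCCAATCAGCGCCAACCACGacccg
The elements start 65 bases before the start site in Hspa5, 212 and 107 bases before it in Hsp90b1, and 105 bases before it in Dnajc3. Beside the rise of Hspa5 by 0.18, Hsp90b1 had 0.03 and Dnajc3 -0.03 (95% confidence interval -0.12 to 0.07). With GC and length trends removed Hspa5 had 0.24 and Hsp90b1 0.16, both past the test, and Dnajc3 0.08, which was not (limma adjusted p 0.239). A match is a description of these letters and not evidence of binding.

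The mitochondrial chaperonin did not pass the test on average. Hspd1 lay at 41.5 to 44.0 TPM in control saline and 45.2 to 46.3 TPM in control cocaine, with no overlap, and at 41.0 to 46.2 TPM against 42.4 and 44.1 TPM in the cKO label. Its averaged log2 fold change was 0.05 (95% confidence interval -0.02 to 0.12) and that of Hspe1 was 0.00 (-0.12 to 0.13). Once GC and length trends were removed Hspd1 had 0.09 and passed (limma adjusted p 0.0366), and Hspe1 had 0.07 and did not (0.399). The 2 genes lie head to head on chromosome 1, with 215 bases between the RefSeq start sites used here. The stretch between these starts holds a pair of overlapping heat shock elements, the sites at which Hsf1 acts. By GENCODE M21 the 2 genes overlap at these ends, and the stretch printed below overlaps an exon of Hspd1. The sequence is shown because the same element lies between these starts of both genes. Those of the other members that hold it, among the 58 with a promoter at hand, follow. Hspa8, Hsp90aa1 and Hsp90ab1 were not among the genes searched.
Hspe1, chr1:55088054-55088081, plus strand: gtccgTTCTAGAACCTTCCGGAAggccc
Hspd1, chr1:55088054-55088081, minus strand: gggccTTCCGGAAGGTTCTAGAAcggac
Dnajb6, chr5:29735847-29735869, plus strand: tccgaGAATCTTCCGGAAcgcta
Hsph1, chr5:149636287-149636305, minus strand: gcagaTTCTGGAAAGTTCt
Capitals mark the element, spelled GAANNTTCNNGAA or TTCNNGAANNTTC, which was found in 198 of all 32851 promoters (0.603%) and in those of these 4 chaperone genes. In Hsph1, which rose by 0.16 (limma adjusted p 0.0408), it lies after the start site. Dnajb6, with its element 46 bases before the nearer start, had a log2 fold change of -0.03. Among the other mitochondrial members Dnajc15, a regulator of respiration and import, fell by 0.19 (SE 0.063, limma adjusted p 0.0387), a call lost in 7 of the 14 refits, and Dnaja3, Dnajc11, Dnajc19 and Dnajc30 did not pass. Removal of GC and length trends lost the call for Dnajc15 and brought Dnajc19 past the test, at 0.28 (limma adjusted p 0.00181) against 0.12.

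J-domain proteins of the nucleus and ribosome rose in 3 cases. Dnajc8, a spliceosome-associated protein, lay at 19.0, 21.5, 21.7 and 20.4 TPM in control saline and 24.03, 22.7, 21.5 and 20.8 TPM in cKO saline, and at 25.8, 30.9, 27.2, 29.6, 27.8 and 26.7 TPM in the cocaine libraries. All 6 cocaine libraries were higher than all 8 saline libraries. The log2 fold change was 0.37 (SE 0.050, limma adjusted p 0.000179) and held in every refit without a library. Dnajc17, another splicing factor with a J domain, had 3.37 to 4.93 TPM in saline libraries and 4.40 to 6.46 TPM in cocaine libraries, a log2 fold change of 0.37 (SE 0.091, limma adjusted p 0.00733). In the cKO label its change was 0.50 (SE 0.140, limma adjusted p 0.0245), with 5.78 and 6.46 TPM against 3.69 to 4.93 TPM. This was the only chaperone gene past both thresholds in any of the 6 comparisons, where 3.06% of all tested genes were past them in that comparison, and the call was lost in 4 of the 14 refits and with GC and length trends removed. Dnajc21, which matures the large ribosomal subunit, rose by 0.22 (limma adjusted p 0.033), lost in 8 refits. Dnajc2, Dnajc9 and Hspa14 did not pass, though Dnajc2 did with GC and length trends removed (0.23 against 0.10, limma adjusted p 0.0151).

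The abundant synaptic J-domain genes did not pass the test. Auxilin, Dnajc6, had -0.04 (95% confidence interval -0.13 to 0.05) and CSP alpha, Dnajc5, had -0.06 (-0.13 to 0.02). Dnajc5 lay at 56.5 to 61.1 TPM in control saline and 56.5 to 60.1 TPM in control cocaine, so the groups overlapped almost fully. Dnajc13, which works on endosomes, fell by 0.12 (SE 0.039, limma adjusted p 0.0351), and 11 of the 14 refits, and the removal of GC and length trends, lost that call.

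Of the remaining members, Dnajc4 rose by 0.20 (limma adjusted p 0.0114), a call lost without cKO cocaine replicate 1 (adjusted p 0.0616) and with GC and length trends removed. Dnajc12, a cochaperone of the hydroxylases that make dopamine and serotonin, fell in the control label from 8.92, 9.45, 9.02 and 9.14 TPM to 8.01, 6.46, 7.83 and 4.95 TPM, by 0.42 on the log2 scale (SE 0.110, limma adjusted p 0.0159), with no overlap. In the cKO label it had -0.02 (SE 0.135), and with groups set by the genotype tags the control-label fall did not pass (adjusted p 0.123). Summed levels of 7 hypothalamic markers also differed between these groups, at 235, 465, 252 and 133 TPM in control saline and 2.57, 127, 86.0 and 7.50 TPM in control cocaine. They were 10.0 to 148 TPM in cKO saline and 34.0 and 73.8 TPM in cKO cocaine. Within control cocaine, replicate 1 had the lowest sum and the highest Dnajc12, and replicate 4 a sum of 7.50 TPM and the lowest Dnajc12. The part of these markers in the Dnajc12 value was not tested.

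By label, the control libraries had 12 chaperone genes higher and 3 lower after cocaine (limma adjusted p under 0.05), where 13.9% of all tested genes were higher and 10.2% lower, and none also past 0.5, where 3.07% of all tested genes were. With no overlap between the 4 cocaine and the 4 saline libraries, 14 genes were higher and 3 lower, beside 14.0% and 11.2% of all tested genes, and each of these 17 had the smallest exact two-sided permutation p that 4 against 4 allows, 0.0286, or 0.114 after adjustment over all tested genes. The cKO libraries had 7 higher and 6 lower, where 8.63% of all tested genes were higher and 11.6% lower. There 2 cytosolic members passed upward, Hsp90ab1 and Hspa1a, against 8 in the control label. The median log2 fold change of the 21 tested cytosolic members was 0.147 in the cKO label and 0.154 in the control label. With 2 cocaine libraries the cKO label has less power, so the counts are not like for like.

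Whether these effects differed between the labels as given was tested directly. If the cocaine labels are exchanged, each contrast within a label sets libraries of different genotypes against each other. The difference of the cocaine effects is then not one between genotypes, and no fit exchanged these labels. No chaperone gene passed for the difference of the cocaine effects, where 1.35% of all tested genes passed at an adjusted p under 0.05 and 0.861% also at 0.5. An unadjusted p under 0.05 was reached by 11 chaperone genes and by 18.6% of all tested genes. The smallest adjusted p was that of Hspa12a. Nor did any pass between the labels after saline, where 0.156% of all tested genes passed and 0.0445% also at 0.5, or after cocaine, where 0.0742% passed and 0.0445% also at 0.5. Unadjusted p under 0.05 was reached by 3 chaperone genes after saline (Dnajb11, Hspa12a and Hspa12b), where 17.1% of all tested genes reached it, and by 6 after cocaine, where 12.1% did. After saline the median log2 difference of the 63 was 0.01 and 57 of the 63 confidence intervals lay within 0.5 either way.

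Ratios of 2 chaperones within a library do not depend on the scaling, but GC and length trends can still bear on them. The pairs were chosen after their values were seen, so they are descriptions without a test. Hsp90ab1 exceeded Hsp90aa1 by 1.32 to 1.48 times in the 8 saline libraries and by 1.51 to 1.66 times in the 6 cocaine libraries. Hspa8 exceeded its mitochondrial relative Hspa9 by 10.6 to 12.9 times in saline libraries and 13.7 to 15.6 times in cocaine libraries. Hspa5 exceeded Hspa13 by 6.32 to 7.29 times in saline libraries and 7.64 to 10.4 times in cocaine libraries. None of these 3 ratios overlapped between treatments. The ratio of Hsf1 to Hsf2 did overlap, at 1.22 to 1.72 in saline libraries and 1.54 to 2.37 in cocaine libraries. The ratio of Hspe1 to Hspd1, which share their promoter, was 0.714 to 0.949 in control saline and 0.757 to 0.880 in control cocaine and did overlap. The ratios were not recomputed with GC and length trends removed. In that setting the averaged log2 fold changes were 0.29 for Hsp90ab1 and 0.22 for Hsp90aa1, against 0.33 and 0.12 on the main scale. Hspa8 and Hspa9 had 0.24 and -0.05, against 0.19 and -0.10, and Hspa5 and Hspa13 had 0.24 and -0.11, against 0.18 and -0.27.

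**Figure D4:**
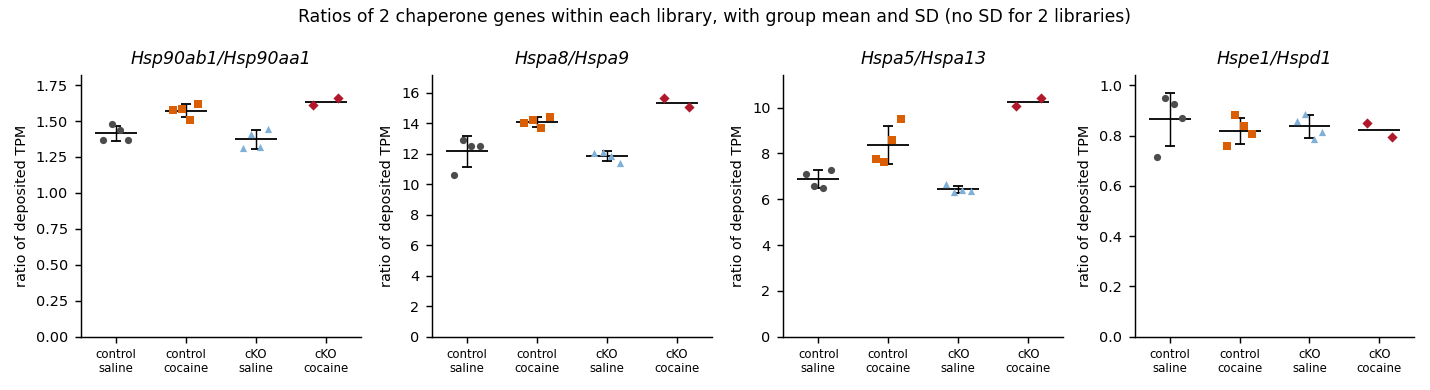
Ratios of the deposited TPM of 2 chaperone genes within each of the 14 libraries, with the group mean as a line and the SD as a bar (no SD for the 2 cKO cocaine libraries). The first 3 ratios are higher in every cocaine library than in any saline library, and the ratio of Hspe1 to Hspd1 overlaps.

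The direction of single genes depends on the scale. On the TPM as deposited, 11 of the 24 genes that passed kept the sign of their change, and Hsp90ab1 had -0.04 and Hspa8 -0.18 where the median gene had -0.34. Relative to that median all 24 kept their sign, as they did with median-of-ratios scaling. GC content moved with the result too: the longest transcripts of the 17 genes that rose had a median GC content of 51.0%, those of the 7 that fell 42.4%, and those of all tested genes 49.7%. Over all tested genes the median log2 fold change was -0.15 in the fifth with the lowest GC content and 0.10 in the fifth with the highest. With GC and length trends removed 11 of the 17 that rose still passed, Hsp90ab1, Hspa8 and Dnajc8 among them, and 6 were lost, Dnajb1, Dnajb12, Dnajc4, Hsf1, Hspb1 and Hspb6. Another 6 came to pass upward, Dnaja1, Dnaja2, Dnajc2, Dnajc19, Hsp90b1 and Hspd1, so that 17 were higher again. Of the 7 that fell only Dnajc10 still passed, and Hspa12b (-0.21, limma adjusted p 0.0234) came to pass downward. With these trends removed 1438 of the 13471 tested genes were higher and 1326 lower, against 2188 and 2207 on the main scale.

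**Figure D5:**
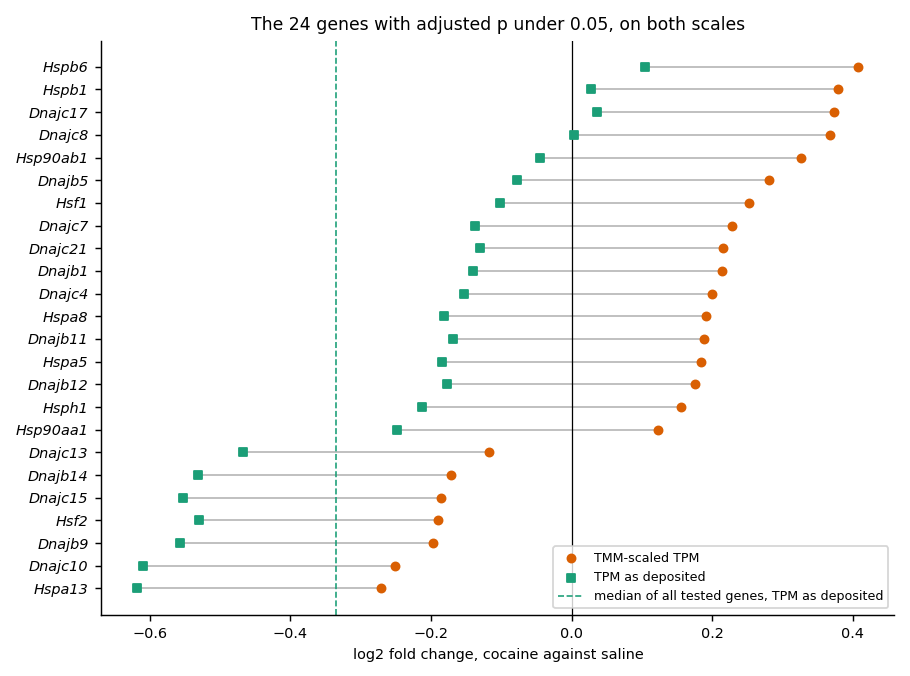
Log2 fold change for cocaine against saline of the 24 chaperone genes with an adjusted p under 0.05, on TMM-scaled TPM (circles) and on TPM as deposited (squares); the dashed line is the median of all tested genes on TPM as deposited. All squares of genes that rose lie right of the dashed line and all squares of genes that fell lie left of it.

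Partners of the chaperones, listed by function, were read on the main scale alone. Their values with GC and length trends removed, or under the other alternatives, were not examined. Of 27 cochaperones of Hsp70 and Hsp90, 10 rose and 3 fell after cocaine (median log2 fold change 0.09), where 16.2% of all tested genes rose and 16.4% fell. Named after their values were seen, the Hsp70-interacting protein St13 had 0.29 (SE 0.034, limma adjusted p 6.12e-05), the kinase-loading Cdc37 0.29 (adjusted p 3.58e-05), Stip1 (Hop), which bridges Hsp70 and Hsp90, 0.33 (adjusted p 0.001), the immunophilin Fkbp4 0.23 (adjusted p 0.000366) and Ahsa1, the activator of the Hsp90 ATPase, 0.19 (adjusted p 0.00272). Of the 3 that fell, Ptges3 (p23), which closes the Hsp90 cycle, had -0.16 (adjusted p 0.00833). The alpha-B crystallin gene Cryab, a relative of the small heat shock proteins, rose by 0.48 (SE 0.110, limma adjusted p 0.00524), and Cryaa did not pass the filter. Cryab and the oligodendrocyte markers that passed moved the same way in the control label, with 0.61 after cocaine beside 0.45 for Mbp and 0.60 for Mobp, and a difference between the labels after saline of 0.38 beside 0.43 and 0.52, none of these last 3 past the test. In the cKO label Cryab had 0.35 (adjusted p 0.168) where Mbp had 0.0019 and Mobp 0.0087. Over all 5 oligodendrocyte markers the median log2 fold change was 0.34 in the control label, with 5 above 0. In the cKO label it was -0.16, with 2 of the 5 above 0. The part of these markers in the Cryab value was not tested.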

How the data were processed

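TPM of 14 RNA libraries of mouse thalamus were analysed. The authors mapped reads to GRCm38.p4 with STAR 2.5.3a, quantified them with Salmon, and deposited 1 table of TPM per library, which keeps no depth, so the counting error of each value is unknown. The values of 2 deposited tables, whose unit is recorded as other, are also TPM, written with a decimal comma that was read as a point. Groups follow the sample titles.

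Each library's TPM were divided by an unweighted TMM factor, with 30% of log ratios and 5% of mean values trimmed from either end, and log2 was taken after adding 0.5, so that fold changes understate those of low genes. The 13471 genes that reached 1 TPM in 3 or more libraries were fitted in limma 3.58.1 (R 4.3.3) with a mean per group and an intensity trend. p-values were adjusted over all of them by Benjamini-Hochberg. A call needed an adjusted p under 0.05 together with a log2 fold change of 0.5 or more either way. Intervals are 95% confidence intervals of limma's moderated test. The procedure was tested on simulated data.

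The members and lists were chosen with earlier results of these data known. Named were every member called in any comparison, 25 main members, Maged1, and members past an adjusted p of 0.05, the last chosen after their values were seen. GC content and length, taken from each symbol's longest transcript in GENCODE M21, were at hand for 97.9% of tested genes and all 63 tested members. Promoters are RefSeq's. Replicate numbers do not pair the libraries, which are independent samples by the labels. The alternatives comprised median-of-ratios scaling, TPM as deposited, pseudocounts of 0.1 and 1, no filter, a mean of at least 5 TPM, a replicate block, genotype tags, treatment alone, no fold change minimum, each library left out, and, added after seeing the data, removal of GC and length trends.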

Additional observations from a re-analysis of the deposited data

Results flagged for a closer look

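Of 123 groups of 4 libraries examined over 41 named genes, 8 held a library whose gap to the nearest other as a share of the group's range exceeded Dixon's 95% critical value, where chance gives about 5%. In control saline, Dnaja1 was 43.7 TPM in replicate 4 (others 42.9 to 43.0), Hsph1 57.0 TPM in replicate 4 (others 53.7 to 54.2), Dnajc7 35.0 TPM in replicate 2 (others 29.3 to 30.2), Hspb8 3.91 TPM in replicate 1 (others 1.84 to 2.13) and Maged1 167 TPM in replicate 2 (others 150.3 to 152). Hspb8 stood out in the library in which 5 choroid plexus markers summed to 1441 TPM, against 13.6 to 54.8 TPM in the rest of its group, and their part in its value was not tested. In control cocaine, Hspa8 was 598 TPM in replicate 1, below the others at 665 to 676, and Dnajc6 76.8 TPM in replicate 4, above the others at 66.7 to 67.5. In cKO saline, Dnajc4 was 7.59 TPM in replicate 3, below the others at 9.48 to 9.57.

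The contrast of cocaine with saline libraries for Maged1, the targeted gene, differed between the labels by 2.26 on the log2 scale (SE 0.165, limma adjusted p 6.78e-05), with -1.09 in the control label and 1.17 in the cKO label. Because Maged1 ran against the labels after cocaine, deletion of the gene and treatment cannot be told apart in these values.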

How the results depend on the processing

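Depth is unknown, so what it limits could not be set. In the comparisons between labels and the difference of the cocaine effects, no chaperone gene passed an adjusted p of 0.05 under any alternative run. Counts are given as higher and lower after cocaine for both labels, the control label and the cKO label, at an adjusted p under 0.05 (17 and 7, 12 and 3, 7 and 6) and as calls (0 and 0, 0 and 0, 1 and 0). TPM as deposited gave 0 and 49, 0 and 46, 0 and 39, and 0 and 7, 0 and 5, 0 and 10 calls, since all genes shifted together. Without the fold change minimum the calls become 17 and 7, 12 and 3, 7 and 6. With GC and length trends removed 2 were lower for both labels and 1 in the cKO label, and calls higher were 1 in the control label and 0 in the cKO label. In the cKO label, pseudocounts of 0.1 and 1 gave 2 and 0 calls higher, no filter gave 3 lower and the genotype tags 1 lower.

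The replicate block gave 4 higher and 2 lower in the cKO label, and 16 and 5 for both labels. Same-numbered libraries of different groups had a mean correlation of deviations of -0.014 over 18 pairs, and differently numbered ones 0.0046 over 54, so the numbers pair nothing.

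Leaving out each library gave, at an adjusted p under 0.05, 10 to 18 higher and 2 to 8 lower for both labels, 10 to 15 and 3 to 5 in the control label, and 1 to 8 and 1 to 6 in the cKO label. Calls ranged over 0 to 2 and 0 to 0, 0 to 1 and 0 to 1, and 0 to 3 and 0 to 1. When 1 cKO cocaine library is left out, the other is assumed to vary like the other groups.

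Of 380 named values under settings other than leaving out a library, 305 kept direction and threshold, 53 lost the threshold and 22 reversed. On TPM as deposited, log2 fold changes for both labels were -0.14 for Dnajb1, -0.17 for Dnajb11, -0.18 for Dnajb12, -0.078 for Dnajb5, -0.13 for Dnajc21, -0.15 for Dnajc4, -0.14 for Dnajc7, -0.10 for Hsf1, -0.25 for Hsp90aa1, -0.044 for Hsp90ab1, -0.18 for Hspa5, -0.18 for Hspa8 and -0.21 for Hsph1. In the control label they were -0.20 for Dnaja1, -0.13 for Dnajb1, -0.22 for Hsp90aa1, -0.061 for Hsp90ab1, -0.15 for Hspa8 and -0.11 for Hsph1, and in the cKO label -0.027 for Hsp90ab1 and -0.075 for Hspa5. With GC and length trends removed Hsf2 had 0.022. The cause of the other changes was not tested.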

Other observations

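Other folding machines were read beside the chaperones in the comparison of cocaine with saline over both labels, where 16.2% of all tested genes rose and 16.4% fell, and the genes named here were chosen after their values were seen. All values under this heading are on the main scale alone. They were not examined with GC and length trends removed. The cytosolic chaperonin TRiC folds actin and tubulin, which prefoldin hands to it. Of 14 genes of this pair, 5 rose and 5 fell. Those that rose were the prefoldin subunits Pfdn1 (log2 fold change 0.21), Pfdn2 (0.37), Pfdn4 (0.29) and Pfdn6 (0.26) and the TRiC subunit Cct5 (0.16). Those that fell were the TRiC subunits Tcp1 (-0.16), Cct4 (-0.20), Cct6a (-0.09) and Cct8 (-0.14) and the prefoldin subunit Vbp1 (-0.35).

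Of 28 tested genes of endoplasmic reticulum stress 7 rose and 5 fell. Among them Ddit3 (CHOP), a transcription factor of prolonged stress, had 0.29 (limma adjusted p 0.000834), Herpud1 0.21 and the ubiquitin ligase Syvn1 0.26. The 5 that fell were Edem1 (-0.26), Derl1 (-0.14), Derl2 (-0.24), Serp1 (-0.21) and Asns (-0.14), and Sel1l had -0.06 and did not pass. Xbp1 rose by 0.21 (limma adjusted p 0.0119). By label, Ddit3 had 0.49 in the control label and 0.09 in the cKO label, and Xbp1 had 0.02 and 0.41. Neither difference between the labels passed (limma adjusted p 0.0614 for Ddit3 and 0.089 for Xbp1). Of the 28 genes only Atf4 passed for that difference (-0.44, limma adjusted p 0.037), where 1.35% of all tested genes did. Of 16 genes of mitochondrial protein quality control 5 rose and 1 fell: the mitochondrial Hsp90 gene Trap1 had 0.19, the proteases Lonp1 0.20 and Clpp 0.15, the import motor subunit Timm44 0.13 and the transcription factor Atf5 0.28, and the protease Yme1l1 had -0.28.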
